A study of Mus musculus with 12 samples.

Results

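The ADAM (a disintegrin and metalloprotease) genes described here are Adam8, Adam9, Adam10, Adam15, Adam17, Adam19 and Adam28, taken by their symbols as 7 of the 5545 genes of the deposited table, which holds 33 ADAM genes in all. Below, the ADAM genes are these 7 unless others are named. They were measured by RNA sequencing in liver NK cells and liver ILC1 of 6 C57BL/6 mice, of which 3 were lean and 3 obese. The 12 libraries fall into 4 groups, lean and obese NK cells and lean and obese ILC1, each with 3 libraries. Lean mice were weaned onto the standard diet RM1 and obese mice onto an obesogenic diet (code 824018, 45% AFE fat) with condensed milk as a supplement, and all were kept on these diets for 12 weeks. NK cells were sorted as Lin- NK1.1+ CD49a- CD49b+ and ILC1 as Lin- NK1.1+ CD49a+ CD49b-. Each library was made from 2 ng of total RNA. A mouse gave 1 NK and 1 ILC1 library, and mice carry the numbers 25, 26 and 27 within each diet, so that lean and obese mice of the same number are different animals. The study's methods describe the mice as female C57BL/6J and name CD3, CD8α and Gr1 among the targets of the lineage antibodies (Lin). The bulk measurement of a sorted population cannot tell more cells of a type from more RNA per cell.

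ADAM proteases are membrane-anchored zinc enzymes that cut other membrane proteins close to the cell surface and so release their outer part, a process called shedding. ADAM10 and ADAM17 are the widely expressed sheddases: ADAM10 is the protease that makes the first cut in activated Notch and is an alpha-secretase of the amyloid precursor protein, and ADAM17 (TACE) releases TNF, L-selectin and, on NK cells, the Fc receptor CD16. ADAM8 is known from leukocytes, ADAM19 (meltrin beta) cuts neuregulins, ADAM9 and ADAM15 are further catalytically active members, and ADAM28 was described as a lymphocyte metalloprotease. In the innate lymphocytes of the liver, NK cells circulate and ILC1 reside in the tissue.

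In GRCm38 (GENCODE M21), Adam8 lies on chromosome 7 (139978932 to 139992562, minus strand), Adam9 on chromosome 8 (24949611 to 25016927, minus), Adam10 on chromosome 9 (70678997 to 70780229, plus), Adam15 on chromosome 3 (89338542 to 89349996, minus), Adam17 on chromosome 12 (21323509 to 21373632, minus), Adam19 on chromosome 11 (46055992 to 46147343, plus) and Adam28 on chromosome 14 (68606027 to 68655842, minus). Genes on the opposite strand overlap Adam8 (Gm16201), Adam15 (4731419I09Rik), Adam17 (Iah1, Gm22766) and Adam19 (Gm16033, Gm16034). The sources used here do not say whether reads were counted by strand, so reads of these partners could not be told from those of the ADAM gene.

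RefSeq promoters of build GRCm38.p6, running from 250 bases before to 50 bases after the start site, were found for 5 of the 7 genes. RefSeq gives 3 windows for Adam19, of which the one that holds the GENCODE start of the gene was printed and searched, and the other two were not. The windows of Adam8 and Adam19 are printed because these were the genes that differed between ILC1 and NK cells, and that of Adam17 as the window of a gene expressed in all 12 libraries. Capitals mark matches to the motifs searched on both strands, and each sequence runs 5′ to 3′ along the gene.
Adam8 (chr7:139992513-139992812, minus strand): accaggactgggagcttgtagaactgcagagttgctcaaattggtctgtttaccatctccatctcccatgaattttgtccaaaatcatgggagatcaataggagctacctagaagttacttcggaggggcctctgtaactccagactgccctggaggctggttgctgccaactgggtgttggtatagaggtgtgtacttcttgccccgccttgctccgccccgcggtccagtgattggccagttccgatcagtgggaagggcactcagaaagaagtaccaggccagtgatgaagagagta
Adam19 (chr11:46055734-46056033, plus strand): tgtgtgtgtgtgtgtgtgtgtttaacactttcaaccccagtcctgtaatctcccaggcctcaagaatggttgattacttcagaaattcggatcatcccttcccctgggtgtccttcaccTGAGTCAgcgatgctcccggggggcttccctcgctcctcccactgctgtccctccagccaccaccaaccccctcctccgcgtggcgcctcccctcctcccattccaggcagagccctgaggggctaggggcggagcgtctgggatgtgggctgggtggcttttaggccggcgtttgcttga
Adam17 (chr12:21373583-21373882, minus strand): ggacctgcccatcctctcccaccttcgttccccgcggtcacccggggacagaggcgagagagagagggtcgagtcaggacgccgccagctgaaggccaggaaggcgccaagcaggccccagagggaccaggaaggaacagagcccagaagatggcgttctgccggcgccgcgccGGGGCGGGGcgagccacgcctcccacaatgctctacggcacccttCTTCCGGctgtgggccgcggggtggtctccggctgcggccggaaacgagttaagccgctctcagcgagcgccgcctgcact
Of 32851 mouse promoter windows of this length, the T-box motif AGGTGTGA was in 1.28%, the RUNX motif TGTGGTT in 5.27%, the ETS motif CCGGAAG in 8.86%, the AP-1 motif TGAGTCA or TGACTCA in 5.2% and the SP1 motif GGGGCGGGG in 11.4%. The Adam19 window held 1 AP-1 match, starting at position -131 from the start site. The Adam17 window held 1 SP1 match at -76 and 1 ETS match at -31, the latter on the opposite strand. No letters of these motifs occurred in the Adam8 or Adam10 windows, and the Adam15 window held 1 ETS and 3 SP1 matches, some of which overlap. The GC content was 52.3% for Adam8, near the median of 52.7% over all windows, and 60.3%, 65.3%, 70.0% and 73.3% for Adam19, Adam15, Adam17 and Adam10. These matches describe the sequence only.

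Over the genes analysed here the libraries held 1666637 to 2826766 counts, and 1948 to 3292 genes had a count. Levels of marker lists are given as CPM, here the reads per 1e6 reads of the genes analysed and not of the whole library. Of the ILC1 markers in the table, Cd200r1 and Cxcr6 together had 11100 to 14300 CPM in lean ILC1 and 2220 to 11600 in obese ILC1. In NK cells they had 33.7 to 72.3 in lean and 128 to 391 in obese mice. The genes listed for NK cells, Cma1 and Cx3cr1, together had 4250 to 5790 CPM in lean and 3210 to 3890 in obese NK cells. In ILC1 they had 54.1 to 342 in lean and 260 to 1050 in obese mice. The lists were chosen with earlier results of these data known, so these sums are no independent check of the labels. Taken singly, Cma1 had at least 5096 normalized counts in NK libraries and at most 810 in ILC1 libraries. Cx3cr1 overlapped, with 887 to 2362 in NK libraries and 3111 in obese ILC1 replicate 26. It did not pass between ILC1 and NK cells (log2 fold change -1.72, adjusted p = 0.404, edgeR). The genes of NK1.1, CD49a and CD49b were not analysed here. Obese ILC1 replicate 26 stood apart, with 97800 CPM over 10 hepatocyte genes where the other 11 libraries had at most 607. It was also highest for macrophage (14700 CPM), neutrophil and monocyte (6850), B cell (6090), stellate and endothelial (4630) and dendritic cell genes (1470). The other libraries had at most 1154, 5200, 222, 120 and 16.3 CPM of these. Lean NK replicate 27 had the fewest genes with a count (1948). Results are therefore also given without these libraries where this changed them.

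In ILC1 of lean mice, Adam10 was the most abundant of the 7 transcripts, with Adam17, Adam8 and Adam19 next and Adam9 and Adam15 far lower, whereas NK cells held Adam10 and Adam17 with little Adam8 and almost no Adam19. Levels between genes are compared as normalized counts per kilobase of exon, as means of 3 libraries. In lean ILC1 Adam10 had 373 per kilobase, Adam17 121, Adam8 104, Adam19 83.4, Adam9 7.45 and Adam15 3.53. Among these, the ranges of Adam17, Adam8 and Adam19 overlapped between neighbours. In lean NK cells Adam10 (248) and Adam17 (230) overlapped and stood above Adam9 (13.0), Adam8 (1.87) and Adam19 (0.0937). In obese NK cells Adam10 (320) and Adam17 (161) did not overlap, and Adam8 (13.2) and Adam9 (10.4) came next, with Adam19 at 1.17 and Adam15 at 0.488. In obese ILC1 the means were 329 for Adam10, 160 for Adam17, 81.4 for Adam8, 46.9 for Adam19, 33.5 for Adam9 and 9.6 for Adam15, where Adam10 stood above the rest and each of the others overlapped with the next. Adam10 was thus first by mean in all 4 groups.

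**Figure D1:**
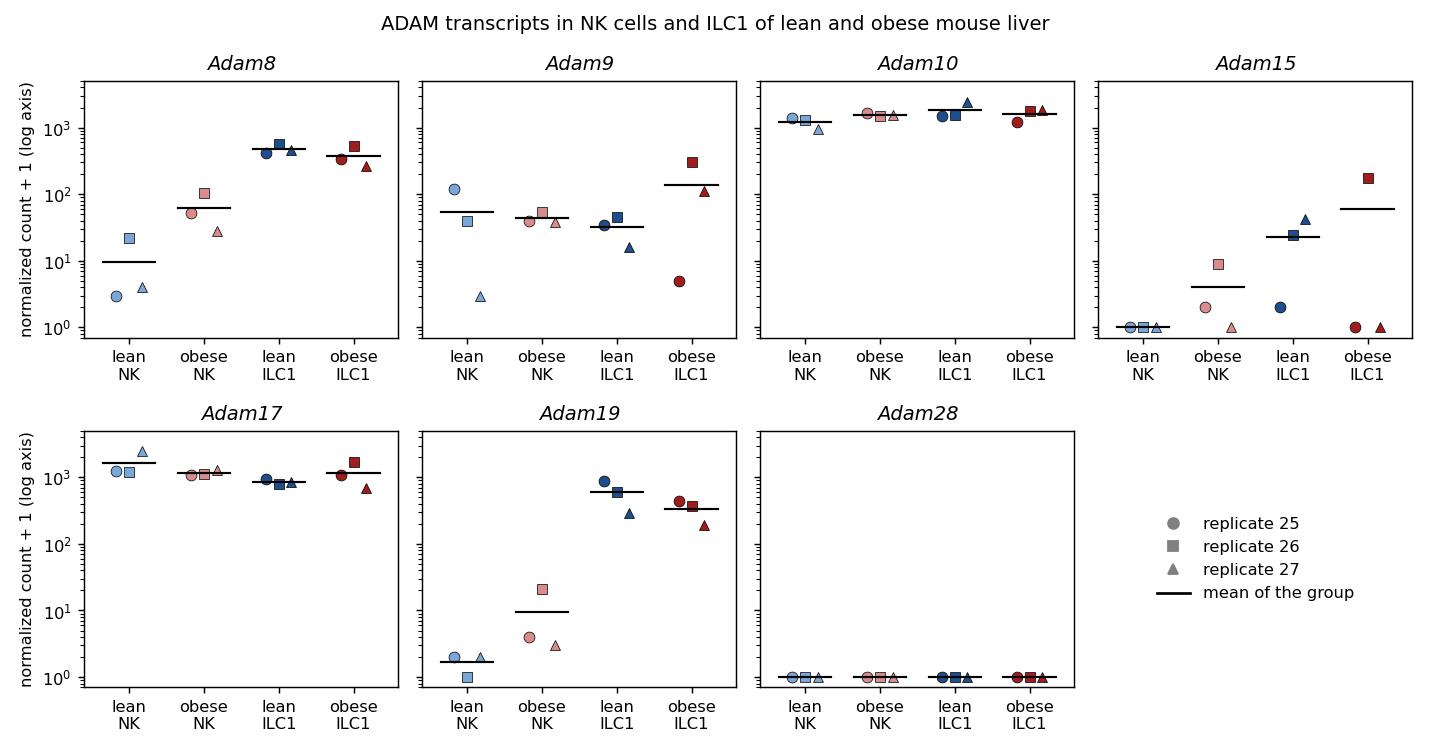
Each panel shows 1 gene, with the authors' normalized count plus 1 on a log axis for the 12 libraries by group, a marker shape for each replicate number and a line at the mean of the group. Adam8 and Adam19 lie higher in every ILC1 library than in every NK library, Adam10 and Adam17 lie between 694 and 2489 in all groups, and Adam28 is at 0 throughout.

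The first question was whether the 2 innate lymphocyte populations differed in ADAM transcripts. Adam8 and Adam19 were higher in ILC1 than in NK cells of both diets, and the other 4 tested genes did not pass the test. Adam19 had normalized counts of 883, 604 and 293 in lean ILC1 (replicates 25, 26 and 27, the order used throughout) and 443, 365 and 192 in obese ILC1, against 1, 0 and 1 in lean NK cells and 3, 20 and 2 in obese NK cells. The lowest ILC1 library was far above the highest NK library, obese NK replicate 26. The means of lean mice were 593 ± 295 (SD, n = 3) for ILC1 and 0.667 ± 0.577 (SD, n = 3) for NK cells. Their ratio was 890 with a 95% interval of counting error of 253 to 7572, since only 2 reads were counted in lean NK cells. In obese mice the means were 333 ± 129 (SD, n = 3) and 8.33 ± 10.1 (SD, n = 3), 40.0-fold apart. By edgeR's quasi-likelihood test on all 12 libraries the log2 fold change of Adam19 was 7.42 (standard error 0.784, Benjamini-Hochberg adjusted p = 0.000289). The size of this value depends on few NK reads: without obese NK replicate 26 it was 8.22. Adam19 was higher in the ILC1 library of 6 of 6 mice.

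Adam8, the leukocyte member, was also low in NK cells but not near 0 in obese mice. Its normalized counts were 419, 563 and 461 in lean ILC1 and 334, 535 and 264 in obese ILC1, against 2, 21 and 3 in lean NK cells and 52, 104 and 27 in obese NK cells. ILC1 and NK libraries did not overlap, and Adam8 was higher in ILC1 in 6 of 6 mice. The means were 481 ± 74.1 (SD, n = 3) and 8.67 ± 10.7 (SD, n = 3) in lean mice, a ratio of 55.5, and 378 ± 141 (SD, n = 3) and 61.0 ± 39.3 (SD, n = 3) in obese mice, a ratio of 6.19. The log2 fold change of Adam8 over both diets was 4.19 (standard error 0.633, adjusted p = 0.00271, edgeR), and without lean NK replicate 26, the lean NK library with most Adam8, it was 5.08.

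A gene was called when it had an adjusted p under 0.05 together with a difference of more than 2-fold. Of the 7 ADAM genes 6 passed the filter on low counts, and 2 of them were called higher and 0 lower in ILC1, where 3.15% of the 2606 genes tested were called higher and 1.19% lower. DESeq2 called Adam8, Adam19 and Adam15 higher, where 5.48% of its genes were called higher and 2.68% lower. With the mouse as a replicate block, fewer genes were called over the whole table (32 higher and 14 lower, against 82 and 31). Adam19 (log2 fold change 7.68, adjusted p = 0.00655) and Adam8 (4.62, adjusted p = 0.0132) were both called with the block. The 2 genes were also those whose 6 ILC1 libraries all lay above the 6 NK libraries, as for 3.03% of the genes tested, and no ADAM gene was among the 2.65% with every ILC1 library below every NK library. Without obese ILC1 replicate 26 and lean NK replicate 27, the log2 fold change was 7.55 for Adam19 (adjusted p = 0.000735, edgeR) and 3.82 for Adam8 (adjusted p = 0.00457).

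Taken by diet, within the same model, Adam19 was called in lean mice (log2 fold change 9.63, adjusted p = 0.00199) and in obese mice (5.22, adjusted p = 0.0289). Adam8 was called in lean mice (5.83, adjusted p = 0.00939) and did not pass in obese mice by edgeR (2.55, standard error 0.826, adjusted p = 0.189), while DESeq2 gave an adjusted p of 0.0150 there. By edgeR 1.5% of the genes tested were called higher in lean mice and 0.537% in obese mice, and by DESeq2 4.16% in obese mice. The difference between the diets is tested further on.

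Among the genes called higher, ranked by log2 fold change, Adam19 was at place 11 and Adam8 at place 48 of 82. Over the 12 libraries, the tested genes most like Adam19 by Pearson's correlation of log2 CPM were Cxcr6 (r = 0.985), a chemokine receptor of tissue-resident lymphocytes, Cd3g (0.963), a subunit of the T cell receptor complex, and Cd63 (0.959), a tetraspanin. For Adam8 they were Ckb (0.975), the brain-type creatine kinase, Cd63 (0.962) and Aqp9 (0.955), a water and glycerol channel. Adam8 and Adam19 had r = 0.92 with each other. These are descriptions over libraries that share the same groups and mice.

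**Figure D2:**
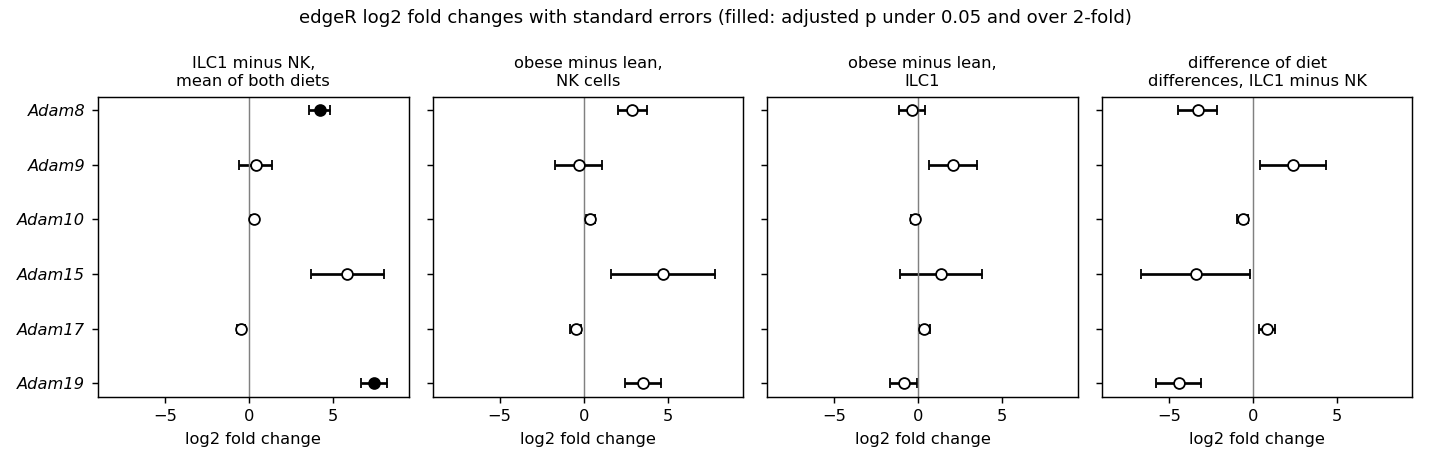
Points are edgeR log2 fold changes of the 6 tested ADAM genes in 4 comparisons, with bars of 1 standard error and filled points for called genes. The 2 filled points are Adam8 (4.19) and Adam19 (7.42) between ILC1 and NK cells, and no point is filled in the comparisons of diets.

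Adam10 and Adam17, the broad sheddases, were present in every library. Adam10 had normalized counts of 1514, 1545 and 2440 in lean ILC1, 1226, 1770 and 1851 in obese ILC1, 1379, 1309 and 964 in lean NK cells and 1666, 1506 and 1538 in obese NK cells. The log2 fold change of Adam10 over both diets was 0.29 (standard error 0.173, adjusted p = 0.434, edgeR). All 3 lean ILC1 libraries lay above all 3 lean NK libraries, a 1.51-fold difference of means, and those of obese mice overlapped (1.03-fold).

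Adam17 had normalized counts of 936, 793 and 859 in lean ILC1, 1081, 1668 and 694 in obese ILC1, 1225, 1214 and 2489 in lean NK cells and 1075, 1107 and 1279 in obese NK cells. It ran the other way from Adam10 in lean mice, where every ILC1 library was below every NK library with a ratio of means of 0.525, and overlapped in obese mice with a ratio of 0.995. The highest value, in lean NK replicate 27, came from the library with the fewest genes. The log2 fold change over both diets was -0.49 (standard error 0.234, adjusted p = 0.287, edgeR), -0.67 without obese ILC1 replicate 26 (adjusted p = 0.0902) and -0.30 without lean NK replicate 27 (adjusted p = 0.482). In lean mice 13.6% of the genes tested had ILC1 libraries that all lay above the NK libraries. Among them were Adam8, Adam10, Adam19 and Adam15, the last by only 1 read in lean ILC1 replicate 25. A further 11.4% had ILC1 libraries that all lay below, among them Adam17. In obese mice these shares were 9.4% and 13.7%, with Adam8 and Adam19 among the former and no ADAM gene among the latter.

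The ratio of Adam10 to Adam17 counts within a library needs no scaling between libraries; it was chosen after the values of both genes were seen and is given without a test. It was 1.62, 1.95 and 2.84 in lean ILC1 and 1.13, 1.08 and 0.387 in lean NK cells, higher in ILC1 in 3 of 3 lean mice. In obese mice it was 1.13, 1.06 and 2.67 in ILC1 and 1.55, 1.36 and 1.2 in NK cells, higher in ILC1 in 1 of 3. All 3 obese NK libraries lay above all 3 lean NK libraries.

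**Figure D3:**
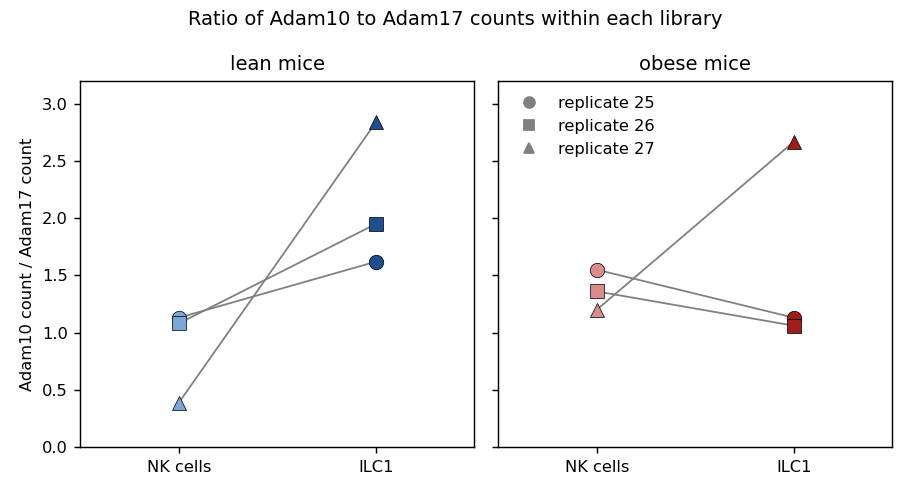
The Adam10 count divided by the Adam17 count in the same library is plotted for NK cells and ILC1, with a line joining the 2 libraries of a mouse. All 3 lines rise in lean mice, from 0.387 to 1.13 in NK cells to 1.62 to 2.84 in ILC1, and 1 of 3 rises in obese mice.

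The other members were scarce or uneven. Adam9 had normalized counts of 33, 44 and 15 in lean ILC1, 4, 300 and 109 in obese ILC1, 120, 39 and 2 in lean NK cells and 38, 53 and 37 in obese NK cells. Its libraries of 1 group differed by more than its groups, and over both diets the log2 fold change of ILC1 against NK cells was 0.40 (standard error 0.980, adjusted p = 0.911, edgeR), or -0.22 without obese ILC1 replicate 26, the library with most Adam9.

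Adam15 had no count in lean NK cells, 1, 8 and 0 normalized counts in obese NK cells, 1, 23 and 41 in lean ILC1 and 0, 177 and 0 in obese ILC1. The 101 reads in obese ILC1 all came from replicate 26. This library had the highest sums for hepatocyte, macrophage, neutrophil and monocyte, B cell, dendritic cell, and stellate and endothelial genes. In lean mice the mean of Adam15 was at least 7.43-fold higher in ILC1, against a floor of 3 counts in each lean NK library. Lean ILC1 replicate 25, with 1 read, was itself under that floor. The log2 fold change over both diets was 5.85 (standard error 2.17, adjusted p = 0.175, edgeR) and 1.40 (adjusted p = 1.0) without obese ILC1 replicate 26. DESeq2 called it (12.86, adjusted p = 1.17e-07), a fitted value that rests on a group at 0 and is no estimate of size.

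Adam28 had 0 counts in all 12 libraries, where 3 counts would be 1.06 to 1.8 CPM over the genes analysed, so a level under this was not detectable at this depth.

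The second question was whether obesity changed ADAM transcripts within a population. In NK cells, Adam8 and Adam19 had more reads in obese than in lean mice, but no ADAM gene passed the test. The mean normalized count of Adam8 was 7.04 times as high in obese NK cells, and all 3 obese libraries (52, 104 and 27) lay above all 3 lean ones (2, 21 and 3). Its log2 fold change was 2.89 (standard error 0.858, adjusted p = 1 by edgeR, adjusted p = 0.134 by DESeq2). With 1 library left out it ran from 2.27 (without obese NK replicate 26) to 4.68 (without lean NK replicate 26, which held most of the lean reads), with adjusted p from 0.213 to 1. For Adam19, 37 reads were counted in obese and 2 in lean NK cells, a ratio of normalized means of 12.5 with a 95% interval of counting error of 3.58 to 119. Obese NK replicate 26 held 30 of the 37 reads. For Adam19 the log2 fold change was 3.54 (standard error 1.06, adjusted p = 1 by edgeR) and 1.92 without that library (adjusted p = 1).

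By edgeR 0 of the 2606 genes were called in either direction between obese and lean NK cells, and at an unadjusted p under 0.05 there were 25 higher (0.959%) and 6 lower (0.23%), with Adam8 and Adam19 among the 25. DESeq2 called 8 genes higher (0.221%) and 0 lower. Adam15 was among the 8 (log2 fold change 18.51, adjusted p = 6.67e-06), on 13 reads in obese and 0 in lean NK cells. Obese NK replicate 26 held 12 of these 13 reads. Adam8, Adam10 and Adam19 were the ADAM genes whose obese NK libraries all lay above the lean ones, as for 9.9% of the genes tested, and none was among the 6.33% with every obese library below every lean one. For Adam19 the lowest obese NK library had 3 reads and the highest lean NK library 1. For Adam10 the difference was 1.29-fold (log2 fold change 0.40, standard error 0.244, adjusted p = 1, edgeR). Adam17 (-0.47, standard error 0.331) and Adam9 (-0.31, standard error 1.38) had overlapping libraries. For Adam17 the difference shrank to -0.05 without lean NK replicate 27.

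Several marker lists moved with Adam8 and Adam19 among NK libraries. The ILC1 sum was 128 to 391 CPM in obese and 33.7 to 72.3 CPM in lean NK cells, and obese NK replicate 26, with the highest sum, also had the highest Adam8 and Adam19. The T cell list, most of whose counts were of Cd3 genes, was 236.2 to 498 CPM in obese and 135 to 235.6 CPM in lean NK cells. The neutrophil and monocyte list, nearly all Ccr2, was 4740 to 5200 CPM against 2690 to 4000 CPM, and the dendritic cell list 13.0 to 16.3 CPM against 0 to 11.4 CPM. The NK cell list ran the other way, with 3210 to 3890 CPM in obese and 4250 to 5790 CPM in lean NK cells. The remaining lists overlapped: hepatocyte genes had 98.6 to 460 CPM in obese and 22.8 to 108 CPM in lean NK cells, and macrophage genes 122 to 171 CPM and 87.8 to 566 CPM. Within the macrophage list Adgre1, Cd5l and Csf1r were at 0 in all lean NK libraries, and in obese ones Adgre1 had 0 to 7, Cd5l 10 to 19 and Csf1r 7 to 17 normalized counts. Within a diet the orders could differ. Obese NK replicate 27 had the highest neutrophil and monocyte sum of its group (5200 CPM) and the lowest Adam8 and Adam19. Lean NK replicate 25 had the highest ILC1 sum of its group (72.3 CPM) and the lowest Adam8. The part of the marker genes in the Adam8 and Adam19 values was not tested.

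In ILC1, no ADAM gene differed between the diets beyond the spread of the libraries. By edgeR 0 genes were called, with 197 higher (7.56%) and 80 lower (3.07%) at an unadjusted p under 0.05, none of them an ADAM gene, and DESeq2 called 57 higher (2.04%) and 20 lower (0.716%), also without an ADAM gene. The log2 fold change of obese against lean ILC1 was -0.40 for Adam8 (standard error 0.780), -0.88 for Adam19 (standard error 0.811), -0.21 for Adam10 (standard error 0.244), 0.36 for Adam17 (standard error 0.331) and 2.07 for Adam9 (standard error 1.44), with adjusted p between 0.677 and 0.928 for these genes. No ADAM gene had groups that did not overlap here, where 7.29% of the genes tested lay higher and 7.94% lower in every obese library. For Adam15 the value turned with 1 library, from 1.37 to -7.59 without obese ILC1 replicate 26, since obese ILC1 then held no read.

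Whether the difference between obese and lean mice was itself different in ILC1 and NK cells was tested as an interaction. It was -3.28 for Adam8 (standard error 1.15, adjusted p = 0.789, edgeR) and -4.41 for Adam19 (standard error 1.33, adjusted p = 0.741), so neither passed. By edgeR 0 genes were called, with 89 higher (3.42%) and 66 lower (2.53%) at an unadjusted p under 0.05, Adam8 and Adam19 among the lower. DESeq2 called 6 higher (0.189%) and 15 lower (0.473%), among the latter Adam15 (-17.06, adjusted p = 0.0177), which was at 0 in all lean NK libraries. The interaction was -0.61 for Adam10 (standard error 0.345) and 0.83 for Adam17 (standard error 0.468), both with an adjusted p of 0.905.

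Markers of other cells were set beside Adam8 and Adam19 in ILC1. The T cell list of 8 genes had 7540 to 8920 CPM in lean ILC1 and 1690 to 6560 in obese ILC1, against at most 498 in NK cells. In lean ILC1 most of it was Cd3g, with 12468 to 13673 normalized counts. CD3 was among the lineage antibodies of the sort. In lean ILC1, Cd3d had 721 to 2012 and Cd3e 271 to 1013 normalized counts, Cd4 0 to 187, Cd5 41 to 176 and Cd6 20 to 391, while Cd8a and Cd8b1 were at 0. Obese ILC1 replicate 26 had 3493 of Cd3g, 1546 of Cd3d, 1475 of Cd3e, 888 of Cd6, 786 of Cd8b1, 586 of Cd4, 444 of Cd5 and 353 of Cd8a. In obese ILC1 replicates 25 and 27, Cd8a was at 0 and Cd8b1 had at most 16. The macrophage list of 9 genes had 92.0 to 238 CPM in lean ILC1, 953 to 14700 in obese ILC1 and 87.8 to 566 in NK cells of both diets. No gene of this list was at 0 in all 3 libraries of either ILC1 group. In obese ILC1 replicate 25, where Adam8 had 334 normalized counts, 5 of its 9 genes were at 0, and Cd68 had 914, Adgre1 638, Clec4f 307 and C1qb 91. In lean ILC1 replicate 27, where Adam8 had 461, 3 of the 9 were at 0, Cd68 had 67, Adgre1 64, C1qa 24 and C1qc 21. The part of T cell and macrophage transcripts in the Adam8 and Adam19 values was not tested.

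**Figure D4:**
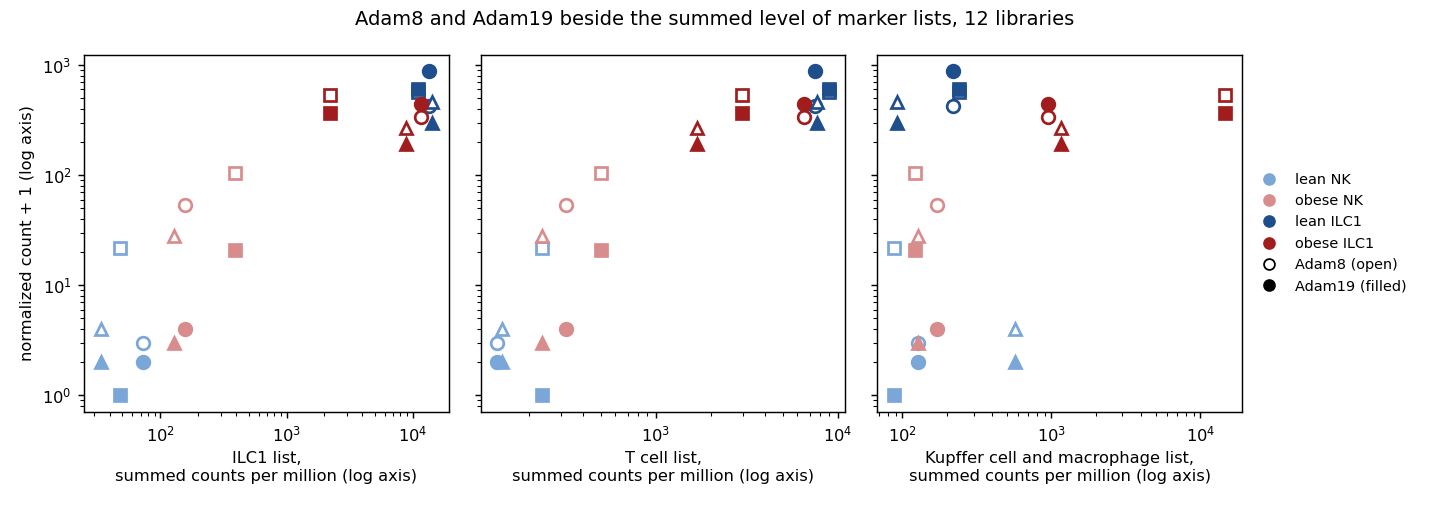
Normalized counts plus 1 of Adam8 (open) and Adam19 (filled) in 12 libraries are plotted on log axes against the summed CPM of the ILC1, T cell and macrophage lists, in colours by group and marker shapes by replicate number. ILC1 libraries lie to the right of NK libraries for the ILC1 and T cell lists, whereas for the macrophage list lean ILC1 (92.0 to 238 CPM) and lean NK libraries (87.8 to 566 CPM) overlap.

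Most other genes of the protease family had few or no reads. Of the 26 other ADAM genes in the table, 14 had 0 counts in all libraries and 12 had a count, 4 of them in 1 library. Only Adam1a (log2 fold change -3.43, adjusted p = 0.268, edgeR), Adam4 (-3.50, adjusted p = 0.341) and Adam22 (0.15, adjusted p = 0.980) were tested between ILC1 and NK cells, and 0 were called. Of the 24 ADAMTS genes, which encode secreted relatives, 17 had a count and 3 were tested. Adamts10 had 163 to 652 normalized counts in all 12 libraries (log2 fold change -0.63, adjusted p = 0.350, edgeR), and Adamts6, at 0 in 3 libraries, had -2.27 (adjusted p = 0.419). Adamts14, known as a procollagen N-propeptidase, fell in ILC1. Adamts14 had normalized counts of 307, 439 and 282 in lean ILC1 and 69, 82 and 179 in obese ILC1, against 1108, 1224 and 1169 in lean NK cells and 939, 868 and 1055 in obese NK cells. Every NK library was above every ILC1 library, with a log2 fold change of -2.45 (standard error 0.270, adjusted p = 0.000351, edgeR).

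Among 19 listed membrane proteins that are known to be shed, 13 were tested and 2 were called higher in ILC1, where 3.15% of all genes tested were. The median log2 fold change of the 13 was 2.04, beside 0.04 over all genes tested. It rested on obese ILC1 replicate 26, which held 87.2% of the reads of Cxcl16, 81.6% of App, 83.0% of Cadm1 and 91.9% of Csf1r, and without that library it was 0.70, beside -0.08 over all genes. Axl, a receptor tyrosine kinase whose outer part is shed, had 147, 221 and 143 normalized counts in lean ILC1 and 481, 1630 and 117 in obese ILC1, and at most 11 in any NK library. Its log2 fold change was 5.98 (adjusted p = 0.00448, edgeR), with an adjusted p of 0.0739 with the mouse as a block. It ran from 5.34 to 7.01 (without lean NK replicate 25) with 1 library left out. Cdh1, the E-cadherin gene and an ADAM10 substrate, had 259, 201 and 219 normalized counts in lean ILC1, 0, 293 and 44 in obese ILC1, and no count in NK cells except 6 in obese NK replicate 26. For Cdh1 the log2 fold change was 8.27 (adjusted p = 0.0332, edgeR, and 0.139 with the block). The call of Cdh1 was lost in 10 of the 12 fits that left out 1 library, with adjusted p from 0.0517 to 0.112, and held without obese ILC1 replicate 25 or 26.

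Of 5 other secretase genes (Aph1a, Aph1b, Aph1c, Bace1 and Bace2) all were tested and 0 were called, with a median of 2.53, or 2.17 without obese ILC1 replicate 26. The median of 2.53 was the value of Bace2 (adjusted p = 0.509, edgeR), which had 50.2% of its reads in obese ILC1 replicate 27. Aph1b (3.06) and Aph1c (3.37) were above it, and Aph1a (-0.24) and Bace1 (-0.27) were negative. Of 7 tetraspanins, membrane organisers of which CD9 is known to bind ADAM10 and ADAM17, 2 were called higher in ILC1, beside 3.15% of all genes tested. Their median was 0.51, or -0.08 without obese ILC1 replicate 26. Cd63 had 780, 598 and 778 normalized counts in lean ILC1 and 519, 1332 and 645 in obese ILC1, against at most 46 in any NK library (log2 fold change 5.71, adjusted p = 7.84e-05, edgeR). Cd81 had a log2 fold change of 5.0 (adjusted p = 0.0144, edgeR, and 0.0513 with the block), with 9912 normalized counts in obese ILC1 replicate 26 and 49 to 820 in the other ILC1 libraries, and without that library it was 3.65 (adjusted p = 0.0301). The call of Cd81 was lost without lean NK replicate 25 or any 1 of the obese NK libraries, with adjusted p from 0.0601 to 0.0711. Cd9 had -0.86 (adjusted p = 0.0112), within the 2-fold limit. No listed gene was called between the diets in either population by edgeR.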

How the data were processed

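Counts per gene and library were made by the authors with, per the labels' processing notes, bcl2fastq 2.19, Trimmomatic 0.36.5, STAR 2.5.2b and featureCounts 1.6.0.2 on build mm10; the annotation and the use of strand are not given in the sources used here. The deposited table also holds a normalized score, the authors' counts divided by a factor per library (0.57 to 1.52) and rounded; this score is printed here as the normalized count. The paper names SARTools with thresholds of 0.05 for the adjusted p and 2 for the fold change, which were used here. The authors' fold changes and p-values in the table were not used. The table was analysed for 5545 complete genes, whose symbols end at Cyp26b1; 1 incomplete row was dropped, later genes were not analysed here, and totals of 1666637 to 2826766 counts understate the depth.

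Counts were fitted in R 4.3.3 with edgeR 4.0.16 (TMM, filterByExpr, quasi-likelihood test, 1 model of 4 groups), with Benjamini-Hochberg adjustment over 2606 genes. A standard error is the log2 fold change over the square root of F. Log2 CPM used a prior count of 2. Gene positions and exon lengths came from GENCODE M21 and promoters from RefSeq. Intervals and floors (3 counts) cover counting error only. Scripts were tested on simulated data. No 2 libraries were identical.

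NK cells and ILC1 of the same mouse are paired by their labels; deviations of paired libraries from their group means had correlations of -0.0763 to 0.141. Lean and obese mice of the same number are different animals (-0.0145 to 0.0768), and the labels do not say what a shared number means. Alternatives were a replicate block, DESeq2 1.42.0, its size factors, no fold threshold, no filter, at least 10 counts in every library, each diet alone, only the compared libraries and each library left out. Leaving out lean NK replicate 27 together with obese ILC1 replicate 26 was chosen after seeing the data. The genes, lists and tests were chosen with earlier results of these data known. Genes named are the 7 ADAM genes, called genes of the lists (up to 4 per list and direction) and, for called ADAM genes, the 3 most correlated genes; the Adam10 to Adam17 ratio, the uncalled genes of the lists and marker genes were named after their values were seen.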

Additional observations from a re-analysis of the deposited data

How the results depend on the processing

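Of 792 values under the alternatives, for 50 results, 741 were graded the same, and 31 results were so under every alternative that was run. For a log2 fold change, the same meant that direction and side of the threshold were kept. For a count of genes it meant an equal or similar count, which includes counts of 0 that stayed at 0. Adam8 and Adam19 were called higher in ILC1 under each alternative that tested both, except that Adam8 lost its call in obese mice alone (2.55), which left 1 ADAM gene called there. With at least 10 counts in every library neither passed the filter, so 0 ADAM genes were called. Leaving out 1 library gave 3.96 to 5.08 for Adam8 and 7.18 to 8.22 for Adam19.

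The numbers of genes called higher and lower in ILC1 (82 and 31) were 149 and 73 with DESeq2, 32 and 14 with the mouse as a replicate block, 39 higher in lean mice alone and 14 and 10 in obese mice alone. They were 38 higher with at least 10 counts in every library, 58 lower with no fold threshold and 70 lower without lean NK replicate 27 and obese ILC1 replicate 26. Leaving out 1 library gave 40 to 114 higher and 22 to 47 lower: 40 to 52 higher without any 1 of lean NK replicates 25 and 26, the obese NK or the lean ILC1 libraries, and 47 lower without obese ILC1 replicate 25. Between obese and lean NK cells, DESeq2 called 8 genes higher, 1 of them an ADAM gene (Adam15, 18.51), and leaving out 1 library gave 0 to 1 (1 without lean NK replicate 26). Between obese and lean ILC1, the counts higher and lower were 57 and 20 with DESeq2, 3 and 2 without the 2 libraries named above, and 0 to 4 and 0 to 2 with 1 library left out (4 and 2 without obese ILC1 replicate 25, 2 higher without replicate 26 and 2 lower without replicate 27). For the interaction DESeq2 called 6 higher and 15 lower, 1 of the latter an ADAM gene, and leaving out 1 library gave 0 to 1 lower (1 without lean NK replicate 26 or obese ILC1 replicate 25).

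The direction turned for uncalled values. Between ILC1 and NK cells, Adam9 ran from -0.22 (without obese ILC1 replicate 26) to 1.10 with 1 library left out, and was -0.50 without both named libraries and -0.79 in lean mice, and Adam10 was -0.014 in obese mice. In NK cells, Adam9 was 0.047 with the replicate block, ran from -0.87 to 1.09 (without lean NK replicate 25) with 1 library left out and was -0.88 without both. In ILC1, Adam10 ran from -0.35 to 0.028 (without lean ILC1 replicate 27), and Adam15 was -1.43 with the block, ran from -7.59 (without obese ILC1 replicate 26) to 2.19 and was -7.60 without both libraries. The replicate block of lean and obese mice, which are different animals with shared numbers, called 0 genes in either population. The mouse block changed no other call of an ADAM gene. The causes were not tested. Depth limits Adam15, Adam28 and the NK values of Adam19, which rest on 0 to 30 reads per library.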
